A study of Cyprinus carpio with 12 samples.

Results

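Intermediately methylated regions were those regions of common carp (Cyprinus carpio) sperm and mid-blastula embryos in which CpG methylation lay neither near 0 nor near complete. They were selected on the measured values: from the authors' lists of regions that differed between a stored and a fresh group, every region was taken whose mean of the stored and the fresh level was at least 25% and under 75%. Both lists hold more regions than the paper reports as differentially methylated, for which its methods name a fold change and a Fisher test. Levels differed by a factor of at least 2 in 3.94% of the sperm and 4.20% of the embryo list. The rule found 7635 of the 41022 regions of the sperm list (18.6%) and 7578 of the 39021 regions of the embryo list (19.4%), 15213 of 80043 in all. Of the remaining regions, 32093 in sperm and 30068 in embryos had a mean level of at least 75% (highly methylated regions), and 1294 and 1375 had one under 25% (lowly methylated regions).

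The lists came from whole-genome bisulphite sequencing, in which unmethylated cytosines are read as T and methylated ones as C, of 12 libraries in 4 groups of 3. These were sperm stored for 14 days, fresh sperm, embryos obtained with stored sperm and embryos obtained with fresh sperm. The sperm libraries were made from sperm of 3 males, and the stored samples came from the same males as the fresh ones. The methods describe dilution of the sperm of each male in an extender, an artificial seminal plasma, without limiting it to the stored samples. Stored sperm was kept on ice. Each embryo library was made from a pool of 50 to 60 embryos from the eggs of 1 female. Which males fathered these embryos is not stated. The methods mention repeated hormone injections and stripping of the males, but do not say which sample came from which stripping or whether all eggs were fertilised on 1 date, so storage cannot be told apart from the date of stripping or, in embryos, of fertilisation. Each list gave 1 mean level per group, so neither the level of a single library nor the number of reads behind a level was used here, no replicate error could be attached to any region, and no test was run.

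In vertebrates, methyl groups are added almost only to cytosines followed by guanine. Fish genomes carry high methylation over most of their length, gene bodies included, while CpG-rich promoters are largely unmethylated. In zebrafish the paternal genome keeps its methylation pattern after fertilisation, and the maternal genome is brought to a sperm-like pattern by about the mid-blastula stage, the stage at which zygotic transcription starts. A level between these extremes is an average over cytosines, alleles, cells and animals, and an average alone does not show which of them differ.

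Both thresholds cut through a continuous range of levels. The sperm member nearest to 25% lay in the flank of ppp6c, a protein phosphatase gene, with 19.8% in stored and 30.2% in fresh sperm, and the nearest region just outside had 33.7% in stored and 16.3% in fresh sperm. At the upper threshold the nearest member had 81.5% in stored and 68.6% in fresh sperm, and the nearest region outside had 81.7% in stored and 68.3% in fresh sperm. In embryos the corresponding members had 17.5% in embryos from stored sperm against 32.6% in embryos from fresh sperm near 25%, and 69.7% (stored) against 80.2% (fresh) near 75%. The regions just outside had 33.4% (stored) against 16.6% (fresh) and 83.6% (stored) against 66.4% (fresh).

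In sperm, intermediately methylated regions were more often lower than higher in the stored group, whereas the list as a whole ran the other way. Of the 7635 sperm members, 3250 were higher and 4385 were lower in stored sperm, a share of 42.6% higher (95% Wilson interval 41.5 to 43.7), against 62.0% of all listed sperm regions and 67.4% (66.9 to 67.9) of the highly methylated ones. The lowly methylated sperm regions had 43.3% (40.6 to 46.0) higher. In embryos 3998 members were higher and 3580 lower in embryos from stored sperm, 52.8% (51.6 to 53.9) higher, beside 50.4% of all listed embryo regions and 49.7% (49.1 to 50.3) of the highly methylated ones. These intervals cover counting only, treat neighbouring regions as independent, and describe a list that was itself chosen on the difference.

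The direction depended on which level chose the members. When they were chosen by the stored level alone, 31.3% of sperm members were higher in stored sperm (71.8% of highly methylated regions), and when chosen by the fresh level alone 57.9% were (62.7% of highly methylated regions). The majority thus turned, while the members' share stayed below that of the highly methylated regions in sperm. In embryos the same choices gave 39.3% and 65.5% of members higher, beside 54.7% and 44.7% of highly methylated regions, so both the majority and the order of the classes turned.

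**Figure D1:**
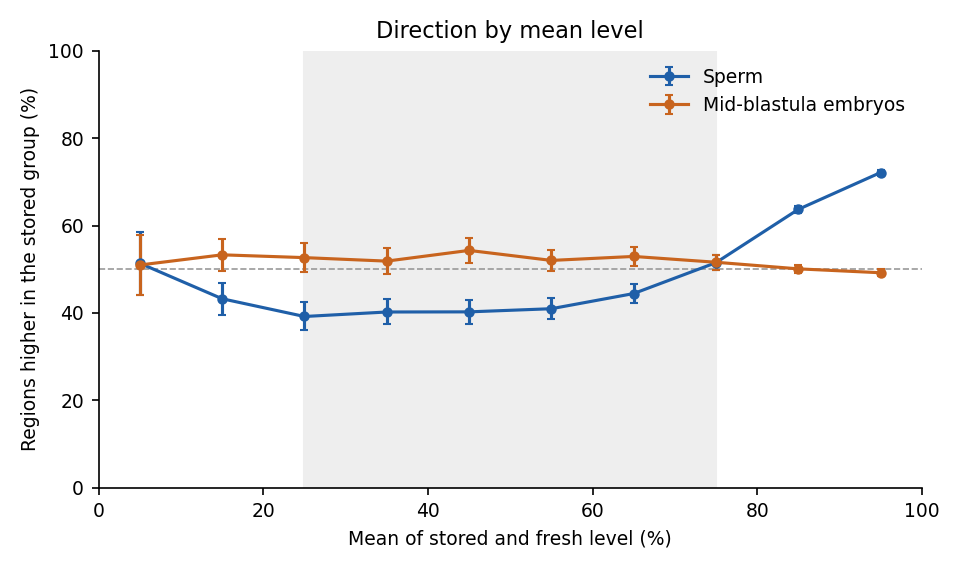
Share of listed regions that were higher in the stored group (vertical axis, %) by the mean of the stored and the fresh level in steps of 10 points (horizontal axis, %), in sperm and in embryos; bars are 95% Wilson intervals, the grey band marks the intermediate range and the dashed line 50%. In sperm the share was 39.2% at 20 to 30% and 72.1% at 90 to 100%, and in embryos it ran close to 50% throughout.

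With members chosen by the mean level, the sperm share was under 50% on 44 of the 50 chromosomes. All chromosomes come from the same stored and fresh libraries, so they are not independent repeats. The share of sperm members higher in stored sperm had a median of 41.8% over the 50 chromosomes, with the lowest share on A9 (29.4%) and the highest on A25 (56.2%), and it was below the share of highly methylated regions on 50 of 50. In embryos the median was 52.6%, from 41.9% on B21 to 62.5% on A16. The letters A and B mark the chromosome sets that go back to the parental genomes of this allotetraploid fish. Members were spread alike over both sets, with 4.51 ± 1.06 sperm members per Mb on the A and 4.37 ± 0.76 on the B chromosomes (SD, n = 25 chromosomes each), and 4.42 ± 1.08 and 4.38 ± 0.74 embryo members per Mb. Chromosome A3 held the most members per Mb in both tissues (7.09 in sperm and 7.45 in embryos), and A24 the fewest.

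Within the sperm members, the share higher in stored sperm was smaller in regions with more CpGs. It was 46.8% (44.9 to 48.7) in members of 5 CpG cytosines, 38.0% (35.4 to 40.7) at 11 to 15 and 33.8% (30.8 to 37.0) at 16 or more. Among highly methylated sperm regions the corresponding shares were 68.1%, 58.4% and 43.7%. Embryo members showed no such order, with shares between 51.6% and 54.6% over the same steps. The share was 42.0% in gene bodies, 41.9% in flanks and 42.6% between genes in sperm, and 52.4%, 52.2% and 53.2% in embryos, so it varied little with position.

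In percentage points, differences were wider in members than elsewhere in the lists. The median absolute difference between the stored and the fresh group was 17.4 points in sperm members and 17.4 points in embryo members, against 11.8 and 11.9 points in highly methylated regions and 14.2 points in lowly methylated ones of either tissue. A difference of at least 20 points was found in 2594 sperm members (33.98%) and 2641 embryo members (34.9%), against 3.12% and 3.53% of highly methylated regions. Of the 582 sperm and 573 embryo regions that differed by at least 30 points, 486 and 495 were members. The difference is bounded by the mean level that defines the classes, and every listed region differs by at least 10 points. A region with a mean level over 90% cannot differ by 20 points in either direction. Of the 16164 sperm and 15232 embryo regions from 90 to 100%, 0% did. The contrast between the classes is thus in part fixed by the rule.

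In sperm members that were higher in stored sperm, the median level was 67.5% in stored and 48.2% in fresh sperm. In those that were lower it was 45.7% in stored and 65.2% in fresh sperm. The embryo members gave almost the same medians, 66.3% (stored) against 46.9% (fresh) in those higher and 46.8% (stored) against 66.3% (fresh) in those lower in embryos from stored sperm. Levels differed by a factor of at least 2 in 555 sperm members (7.27%) and 549 embryo members (7.24%). The shares were 82.15% and 79.35% of lowly methylated regions and 0% of highly methylated ones in either tissue. The median difference was smaller in members with more cytosines, 19.7 points at 5 cytosines and 14.2 points at 16 or more in sperm, and 19.7 and 14.4 points in embryos.

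**Figure D2:**
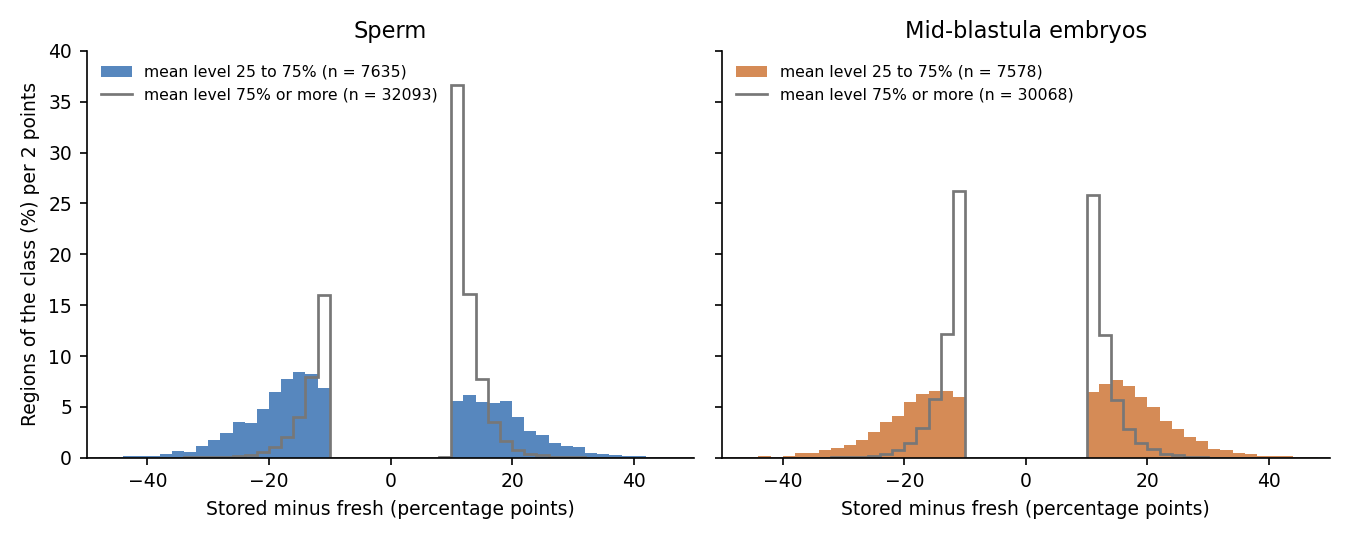
Distribution of the stored minus fresh difference (horizontal axis, percentage points) in intermediately methylated regions (filled) and in highly methylated regions (grey line), as the share of each class per 2 points (vertical axis, %); the axis ends at 50 points on either side. Highly methylated regions crowd at the 10-point threshold, whereas members reach well past 20 points in both tissues and both directions.

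The largest differences of all lay mostly outside named genes. In sperm an intergenic member of 13 cytosines on A4 (A4:27340577-27340628) had 88.7% in stored and 32.9% in fresh sperm, and one of 5 cytosines on A2 (A2:27777867-27777884) had 34.7% in stored and 93.5% in fresh sperm. In embryos a member of 5 cytosines on unplaced sequence had 79.7% in embryos from stored and 14.4% in embryos from fresh sperm, and the largest fall, in the body of LOC109059938 on A23, took a region of 5 cytosines to about 0% in embryos from stored sperm, against 52.4% in embryos from fresh sperm. Coordinates are those deposited, on the RefSeq common carp assembly ASM1834038v1, and may be off by 1 base at an edge because the counting convention is not given in the sources used here.

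Members were denser in CpGs than highly methylated regions. The median was 10.3 CpG cytosines per 100 bp in sperm members (95% interval 10.1 to 10.6) and 10.4 (10.2 to 10.8) in embryo members, against 6.48 and 7.53 in highly methylated regions, with lowly methylated regions higher still at 12.5 and 12.3. The deposited number is read here as counting cytosines on both strands, which is not stated, so that 1 CpG site could count as 2. The median member held 7 cytosines in 81 bp in sperm and 7 in 78 bp in embryos, against 5 in 92 bp and 5 in 80 bp for highly methylated regions. At least 10 cytosines were present in 33.4% of sperm and 33.9% of embryo members, against 6.35% and 6.99% of highly methylated regions.

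Among members at named genes, those with the most cytosines were led by a homeobox gene. In the body of uncx4.1, which acts in somite and neuron development, 60 cytosines in 362 bp (B1:19060540-19060902) averaged 44.6% in stored and 65.0% in fresh sperm. In nck2b, an adaptor that links receptors to the actin skeleton, 52 cytosines averaged 60.4% in stored and 72.2% in fresh sperm, and in sypa, a synaptic vesicle protein gene, 35 averaged 32.4% in stored and 49.0% in fresh sperm. All 5 sperm members that headed this order were lower in stored sperm, with differences between -11.7 and -20.3 points. In embryos the first was b4galnt1a, a ganglioside synthesis gene, where 41 cytosines averaged 60.2% in embryos from stored and 71.7% in embryos from fresh sperm. The splicing factor gene cwc25 (38 cytosines) was higher instead, at 76.9% (stored) against 60.8% (fresh), and so was mkrn2, which encodes a makorin zinc-finger protein, at 36.1% (stored) against 23.7% (fresh).

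Relative to genes, members lay less often in gene bodies and more often beside genes than highly methylated regions did. Of the 6905 sperm members placed on chromosomes, 52.2% (51.1 to 53.4) lay in a gene body, against 60.6% (60.0 to 61.1) of placed highly methylated regions, and for embryo members it was 51.8% (50.7 to 53.0) against 58.9% (58.3 to 59.5). The 1 kb flank on either side of a gene held 6.08% (5.54 to 6.67) of sperm and 6.35% (5.80 to 6.96) of embryo members, against 2.90% and 2.92% of highly methylated regions and 10.8% and 11.0% of lowly methylated ones. Among members inside protein-coding genes, 12.9% in sperm and 13.3% in embryos were within 1 kb of an end of the gene. It was 7.08% and 6.97% of highly methylated regions and 15.3% and 17.8% of lowly methylated ones. The gene table gives neither strand nor exons, so promoters, exons and introns were not told apart. Unplaced sequence held 9.56% of sperm and 9.66% of embryo members, against 7.19% and 7.39% of highly methylated regions.

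**Figure D3:**
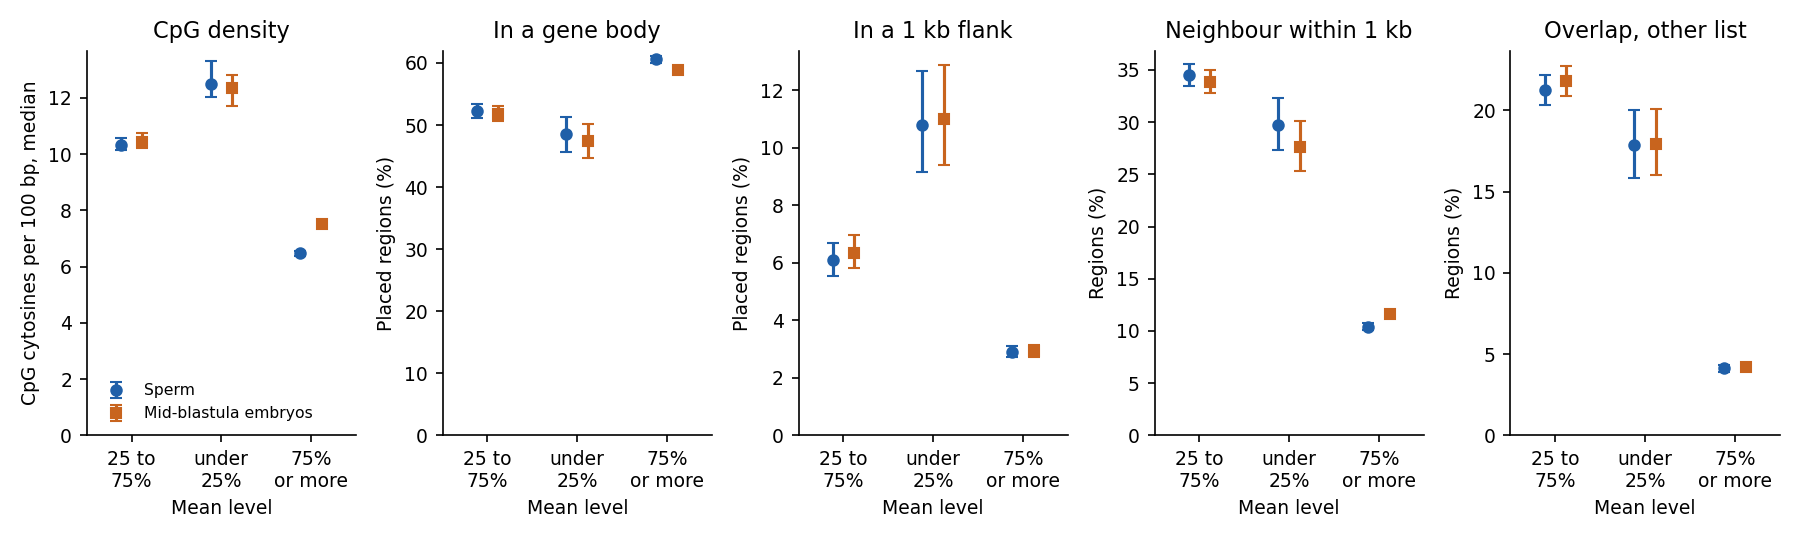
Properties of intermediately (25 to 75%), lowly (under 25%) and highly (75% or more) methylated listed regions, in sperm (circles) and embryos (squares): median CpG cytosines per 100 bp, shares in a gene body and in a 1 kb flank (% of placed regions), share with another listed region of the same tissue within 1 kb, and share overlapping a region of the other tissue's list (%). Bars are 95% intervals; members lie between the other classes in CpG density and in the shares in bodies and flanks, and above both in the shares with a neighbour and with an overlap.

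A member was placed in the body of 2229 protein-coding genes in sperm (5.32% of 41870) and of 2192 in embryos (5.24%). Of these, 1048 genes held members in both tissues, 47.0% of the sperm genes and 47.8% of the embryo genes. Genes with a member were long, with a median of 32842 bp in sperm and 32648.5 bp in embryos against 8558 bp for all protein-coding genes. The share of genes with a member was 1.26% under 5000 bp and 47.5% from 150000 bp on in sperm, and 1.45% and 41.3% in embryos, while the number of members per Mb of gene body stayed between 3.54 and 5.44 in sperm and between 3.54 and 6.01 in embryos. Longer genes thus held a member more often.

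Among genes with a name, nrxn2b, which encodes a presynaptic adhesion protein and spans 682623 bp, held the most sperm members, 10, of which 6 were higher and 4 lower in stored sperm, and it held 5 in embryos. One of its embryo members (B7:1791136-1791230) had 90.3% in embryos from stored and 46.4% in embryos from fresh sperm, and another had 19.8% (stored) against 50.7% (fresh). The transcription factor gene bnc2 held 6 sperm members, 5 of them higher in stored sperm, and 8 embryo members, 4 higher and 4 lower. The long gene avl9, which functions in late secretory transport in yeast, held 6 and 9. In tmem132e, a transmembrane protein gene linked to hearing, 3 of 7 sperm members were higher and 4 lower. Of 430 genes with 2 sperm members, 59.8% had both in 1 direction, against 51.1% if directions were unrelated. Of 375 genes with 2 embryo members it was 52.5%, against 50.15%. Of the 12 genes with 5 sperm members, 3 had all of them in 1 direction. This held for 0 of the 9 genes with 6 sperm members and for 0 of the 26 genes with 5 embryo members.

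Among the genes whose sperm members all went the same way were wdr11 and pbx1b. All 5 members in wdr11, a gene of ciliary and Hedgehog signalling, were lower in stored sperm, at 44.3% to 52.3% in stored sperm against 58.1% to 67.9% in fresh sperm. In embryos 2 of its 3 members were higher in the stored group, and the one at B13:5790671-5790801, where 2 of the sperm members lay, had 68.6% (stored) against 48.0% (fresh). The lower embryo member, at B13:5706189-5706430, also overlapped a sperm member and had the same direction as it, with 41.5% (stored) against 54.4% (fresh). In pbx1b, a homeobox gene that partners Hox proteins, 4 members within 1 kb of each other (B6:3426938-3427930) had 45.7%, 40.6%, 43.8% and 45.1% in stored sperm, against 61.3%, 58.4%, 69.0% and 61.5% in fresh sperm, and a further one in its flank was lower by 11.4 points. The single embryo member, which fell between the first and second of these, went the other way with 63.6% in embryos from stored and 47.8% in embryos from fresh sperm. Both genes were singled out here after their values were seen.

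Short genes with several members were the exception. The chemokine receptor gene cxcr2 (5299 bp) held 4 sperm members, 2 in each direction. Its member at A9:26111435-26111582 had 36.1% in stored and 54.0% in fresh sperm, and the one at A9:26112006-26112135 had 42.2% in stored and 26.4% in fresh sperm. Embryo members overlapped both, the first by 1 bp, and had the same directions, 34.04% (stored) against 54.1% (fresh) at the first place and 41.4% (stored) against 24.0% (fresh) at the second. The purinergic receptor gene p2ry1 (2587 bp) held 4 embryo members within 750 bp, and was chosen after its values were seen. Of these, 3 were higher in embryos from stored sperm, with 67.6%, 65.4% and 71.2% there against 53.2%, 49.0% and 43.3% in embryos from fresh sperm, and the last was lower with 66.0% (stored) against 83.1% (fresh).

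The largest differences at named genes, among members of at least 7 cytosines, reached 51.9 points upwards and 50.0 points downwards in sperm. A 24 bp member in lrp6, the co-receptor of Wnt signals (A4:600417-600441), had 88.8% in stored and 36.9% in fresh sperm. In the nucleoside and monoamine transporter gene slc29a4a a member had 68.7% in stored and 26.4% in fresh sperm. A member in the flank of fmr1, whose RNA-binding product controls translation at synapses, had 57.5% in stored and 20.0% in fresh sperm over 9 cytosines. The potassium channel gene kcnma1a held 3 sperm members, all higher in stored sperm by 13.2 to 33.4 points.

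Downwards, a flank member of usf2, a transcription factor of metabolic genes (B19:20204072-20204132), had 15.3% in stored and 65.3% in fresh sperm over 11 cytosines. In antxr1c, related to the anthrax toxin receptors that bind extracellular matrix, 18 cytosines had 46.9% in stored and 93.6% in fresh sperm. The secretory pathway gene fam20a followed with 35.1% in stored and 77.9% in fresh sperm, and gpr143, a receptor of pigment cells, with 28.5% in stored and 65.9% in fresh sperm. The flank of gdf11, a TGF-beta family ligand of axial patterning, held members of both directions 311 bp apart: 26.1% in stored and 60.3% in fresh sperm at A11:3958389-3958492, and 70.8% in stored and 39.1% in fresh sperm at A11:3958803-3958834.

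Among embryo members of at least 7 cytosines, the largest rise at a named gene was in rabac1, which acts in membrane traffic (A16:3484445-3484501). It had 64.3% in embryos from stored and 19.3% in embryos from fresh sperm. The receptor tyrosine kinase gene alk, which acts in the nervous system, had a member of 62.8% (stored) against 28.3% (fresh), and pck1, the gene of a rate-limiting enzyme of gluconeogenesis, one of 82.6% (stored) against 50.2% (fresh). The largest fall at a named gene among these members was found in mvda, whose enzyme makes a precursor of sterols. It had 20.5% in embryos from stored and 68.1% in embryos from fresh sperm. The short lipid synthesis gene mid1ip1a (1255 bp) had 6.77% (stored) against 44.1% (fresh), and the histone deacetylase gene hdac9b 35.8% (stored) against 70.7% (fresh).

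Gene groups were read from lists of symbols, chosen with earlier results of these data known. They are set beside the 5.32% and 5.24% of all protein-coding genes with a sperm or an embryo member. Such lists can hold only genes with a name, 9616 of the 41870 protein-coding genes, so they are not whole families. The share over named genes alone was not computed. Of 60 cadherin and neural adhesion genes, 15 held a member in sperm and 15 in embryos (25% each), with 13 of 34 sperm members and 13 of 27 embryo members higher in the stored group. These genes have a median length of 78744 bp. Among all protein-coding genes from 50000 to 150000 bp, 19.42% held a member in sperm and 19.45% in embryos. The largest sperm difference of the adhesion genes was in astn1, a gene of neuronal migration along glia, with 54.0% in stored and 85.9% in fresh sperm. Of 53 axon guidance genes (median 48418 bp), 9 held 12 members in sperm, 3 higher and 9 lower in stored sperm, and 5 held 7 members in embryos, 6 higher and 1 lower in embryos from stored sperm. Of all members, 42.6% in sperm and 52.8% in embryos were higher in the stored group. The largest sperm difference of the axon guidance genes was in unc5db, with 77.9% in stored and 51.6% in fresh sperm. The guidance ligand gene slit1b followed with 14.7% in stored and 40.2% in fresh sperm. In embryos slit3, the only lower member, had 31.5% (stored) against 63.3% (fresh), and plxna3 had 84.8% (stored) against 63.9% (fresh).

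Ion channel genes (median 25078 bp) held members in 21 of 110 cases in sperm (19.1%) and 8 of 110 in embryos (7.27%). Synapse genes (median 31514 bp) did so in 10 (13.9%) and 9 (12.5%) of 72. In the ion channel genes 12 of 29 sperm and 11 of 19 embryo members were higher in the stored group. For the synapse genes it was 7 of 14 and 4 of 11. Among all protein-coding genes from 15000 to 50000 bp, 7.76% held a member in sperm and 7.76% in embryos. In syngap1b, a synaptic regulator of Ras, all 3 sperm members were lower in stored sperm, led by 47.4% in stored sperm against 81.7% in fresh sperm. Those at A16:19059608-19059745 and A16:19059757-19059819 lay side by side, so they are not independent. The embryo member next to them (A16:19059821-19060031) was higher, with 46.4% (stored) against 34.2% (fresh). One end of scn5lab, a cardiac-type sodium channel gene, was crowded in both tissues. Its 3 sperm members spanned 0.935 kb and had 51.2%, 58.5% and 79.5% in stored sperm, against 76.5%, 80.4% and 53.8% in fresh sperm. Its 4 embryo members, over 0.916 kb, had 75.1%, 57.5%, 62.2% and 38.2% in embryos from stored sperm, against 41.5%, 74.3%, 39.3% and 27.1% in embryos from fresh sperm. Where the last of the sperm members and the second embryo member overlapped, sperm was higher and embryos were lower in the stored group.

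Of 91 homeobox and paired box genes, mostly short (median 4067 bp), 6 (6.59%) held 10 sperm members, 2 higher and 8 lower in stored sperm. Of the lower sperm members, 4 lay within 1 kb of each other in the body of pbx1b, so they are not independent. In embryos 3 of these genes (3.30%) held 4 members, 2 in each direction. Among all protein-coding genes under 5000 bp, 1.26% held a member in sperm and 1.45% in embryos. The homeobox and paired box list also holds longer genes, such as pbx1b (75063 bp). The 1992 bp gene msx1a, a repressor of the Msx family in craniofacial and neural crest development, had an embryo member (A14:29966279-29966340) of 27.3% in embryos from stored and 47.4% in embryos from fresh sperm, inside a sperm member that also was lower, by 18.9 points. Growth factor, Wnt and Notch genes (median 14594.5 bp) held members in 7 of 100 cases in sperm and 13 of 100 in embryos. In sperm 5 of these members were higher and 6 lower in the stored group, and in embryos 8 were higher and 11 lower. The largest embryo difference was in fgf14, with 77.75% (stored) against 43.4% (fresh). It was followed by axin1, a scaffold of the beta-catenin destruction complex, with 50.9% (stored) against 81.4% (fresh). Zinc finger genes (median 10993 bp) held members in 7 (9.59%) and 4 (5.48%) of 73 cases in sperm and embryos. Of these members, 8 were higher and 4 lower in sperm, and 6 and 6 in embryos. Heart genes (median 10959 bp) held members in 4 (11.8%) and 1 (2.94%) of 34 cases, 1 higher and 5 lower in sperm and 3 and 1 in embryos. Vision genes (median 5543 bp) did so in 3 and 3 of 69 (4.35% each), 2 higher and 5 lower in sperm and 1 and 3 in embryos. Heat shock genes (median 8164 bp) had members in 3 (5.66%) and 1 (1.89%) of 53. The median lengths of the lists from growth factor to heat shock genes fall between 5000 and 15000 bp. Of all protein-coding genes in that range, 2.96% held a sperm and 2.76% an embryo member. Chromatin genes (median 15151 bp) had members in 3 and 3 of 67 (4.48% each). Of all protein-coding genes from 15000 to 50000 bp, 7.76% had one in either tissue.

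Ribosome and proteasome genes (median 3798 bp) held members in 2 of 162 cases in sperm (1.23%) and 3 of 162 in embryos (1.85%), near the 1.26% and 1.45% of all protein-coding genes under 5000 bp. The mitochondrial ribosomal gene mrps9 had members in both, 38.5% in stored and 74.6% in fresh sperm, and beside it 47.8% in embryos from stored and 59.8% in embryos from fresh sperm. Immune genes (median 7011 bp) had members in 8 (4.62%) and 6 (3.47%) of 173. Other developmental transcription factor genes (median 7288 bp) had members in 2 (2.15%) and 3 (3.23%) of 93. Among all protein-coding genes from 5000 to 15000 bp, 2.96% held a member in sperm and 2.76% in embryos. Of 44 germ line genes none held a sperm member and 2 an embryo member, among them spata17 with 42.5% (stored) against 24.99% (fresh).

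Members lay closer together than highly methylated regions, and lowly methylated regions came near them. Another member lay within 1 kb of 26.1% (25.2 to 27.1) of sperm members and 25.8% (24.8 to 26.8) of embryo members. Any listed region of the same tissue lay within 1 kb of 34.5% and 33.9% of members, against 29.8% and 27.6% of lowly and 10.4% and 11.6% of highly methylated regions. The region nearest to a member was itself a member in 41.8% of cases in sperm and 42.6% in embryos, and it was a member for 35.4% and 32.4% of lowly and 14.8% and 15.3% of highly methylated regions. Joined wherever edges were at most 1 kb apart, the members formed 135 runs of 3 and 29 longer runs in sperm, and 110 and 31 in embryos.

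Neighbouring members had the same direction most often over short distances. Of adjacent sperm members under 200 bp apart, 73.5% (69.8 to 77.0, n = 574 pairs) had the same direction, against 51.1% if directions were unrelated. From 200 to 1000 bp the share was 56.4% (52.1 to 60.6), and beyond it lay between 51.7% and 52.9%. In embryos 63.9% (59.8 to 67.8, n = 554 pairs) of adjacent members under 200 bp apart had the same direction, against 50.1% if unrelated, and beyond 200 bp the share lay between 48.5% and 50.4%. Regions this close can share reads, so the members of such a pair are not independent. Opposite directions within 1 kb were found in 380 of 1097 adjacent pairs in sperm and in 462 of 1064 in embryos, and in 44 and 55 of them both members differed by at least 20 points.

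The run with the most sperm members lay on B15 (B15:26613470-26615191), between genes except for its last member, which reached the flank of LOC109050415. It held 6 members and 119 cytosines over 1721 bp, with 42.0% to 71.5% in stored sperm against 55.1% to 78.8% in fresh sperm, and 5 of the 6 were lower in stored sperm. On A22 a run of 5 sperm members in and beside the pseudogene LOC122134941 was lower throughout, by 12.4 to 32.3 points. One gene body on A2, that of LOC109101107, held a run in each tissue. Its 4 sperm members, 82 cytosines in 481 bp (A2:27308614-27309095), had 48.1% to 65.4% in stored sperm against 64.6% to 83.0% in fresh sperm, and all 4 were lower. The 5 embryo members there, 69 cytosines in 775 bp, had 52.1% to 75.4% in embryos from stored sperm against 45.2% to 67.0% in embryos from fresh sperm, and 4 of the 5 were higher.

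The densest place in both tissues was the same stretch of A9. Of all windows of 100 kb, the one from 30.4 to 30.5 Mb held the most members, 20 of 23 listed regions in sperm and 16 of 19 in embryos. All of them fell between the genes LOC122134345 and LOC109080956, the sperm members within 27.9 kb (A9:30458360-30486308) and the embryo members within 23.8 kb. Mean levels there ran from 50.9% to 71.9% in sperm and from 37.9% to 72.4% in embryos. Of the first 11 sperm members along the chromosome, 10 were lower in stored sperm, among them 4 in a row with 39.4%, 35.9%, 52.8% and 53.0% in stored against 64.7%, 74.4%, 72.2% and 82.5% in fresh sperm. Of the 9 that followed, 6 were higher. In embryos 11 of the 16 were higher in embryos from stored sperm, led by a member of 59.6% (stored) against 16.2% (fresh). This stretch was picked after the counts were seen, and what it encodes was not analysed here.

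**Figure D4:**
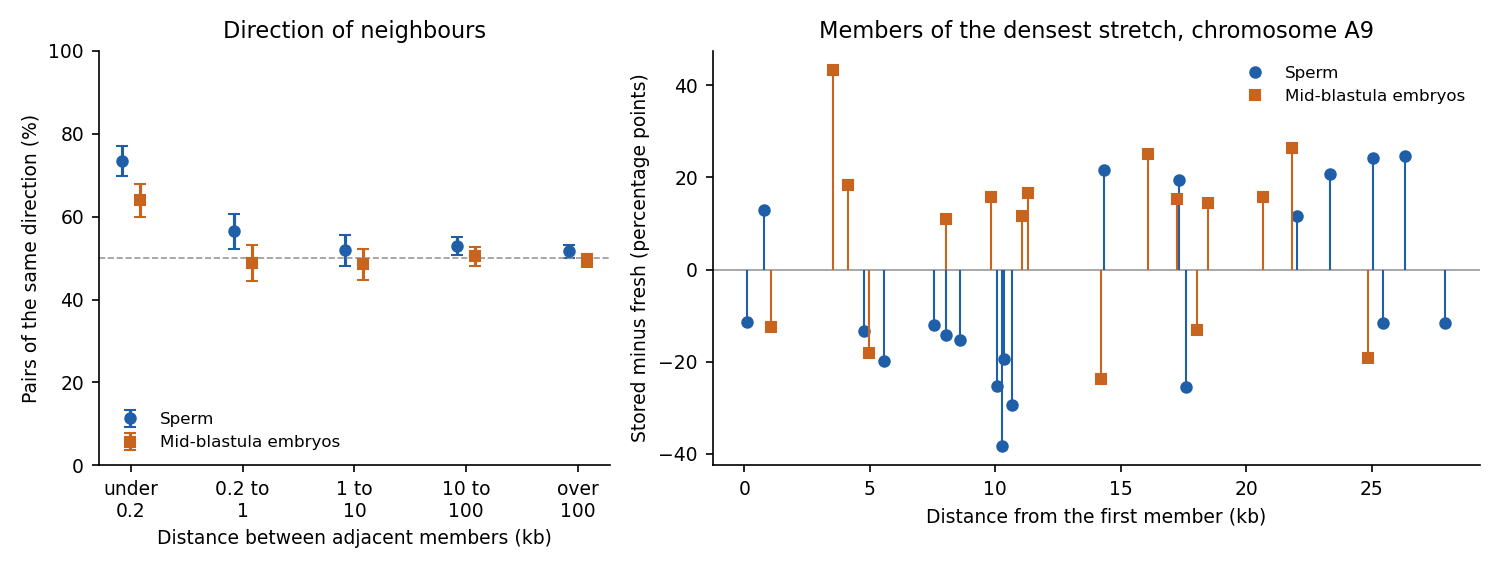
Left, share of adjacent members with the same direction (vertical axis, %) by the distance between them (horizontal axis, kb). Circles are sperm and squares embryos, with 95% Wilson intervals and a dashed line at 50%. The share is highest under 0.2 kb. Unrelated directions would give 51.1% in sperm, slightly above the dashed line. The sperm interval from 0.2 to 1 kb also lies above 51.1%. Sperm intervals from 10000 bp on lie above the dashed line but include 51.1%. Right, stored minus fresh difference (vertical axis, percentage points) of the 20 sperm and 16 embryo members of the A9 stretch by their distance from the first of them (horizontal axis, kb); sperm members are mostly below 0 in the first part and embryo members mostly above.

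The body of mvda (84508 bp on A18) held 7 sperm members, 2 higher and 5 lower in stored sperm, and 3 embryo members. In 1 place, members of both tissues followed each other almost without a gap. A sperm member (A18:12161121-12161454) had 47.6% in stored and 63.1% in fresh sperm. An embryo member (A18:12161453-12161491) had 20.5% in embryos from stored and 68.1% in embryos from fresh sperm, and the next sperm member (A18:12161492-12162010) had 41.7% in stored and 25.2% in fresh sperm.

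Sperm and embryo members overlapped in part. Of sperm members, 21.2% (20.3 to 22.2) overlapped a region of the embryo list by at least 1 bp and 18.4% (17.5 to 19.3, 1404 regions) overlapped an embryo member. The share overlapping an embryo member was 5.16% when at least 50% of both regions had to overlap, and 7.71% among members that differed by at least 20 points. Of lowly methylated sperm regions 17.9% overlapped any embryo region, and of highly methylated ones 4.13%. Of embryo members, 21.8% overlapped a region of the sperm list and 18.5% (1402 regions) a sperm member. The level class was mostly kept: 152 sperm members overlapped a highly and 76 a lowly methylated embryo region, and no highly methylated region of one tissue overlapped a lowly methylated one of the other. The overlaps made 1454 pairs of members, of which 50.3% lay in gene bodies, 34.7% between genes, 9.29% on unplaced sequence and 5.71% in flanks.

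Directions at overlapping places were mixed. Both tissues were higher in the stored group in 302 pairs and lower in 385, whereas sperm was higher and embryos lower in 276 and the reverse held in 491. The same direction was thus seen in 687 pairs, 47.2% (44.7 to 49.8), beside 49.1% if the directions in the 2 tissues were unrelated. The differences had a correlation of -0.03 over the 1454 pairs, while the fresh levels had one of 0.47 (Pearson, across regions that share their position and base composition, given as a description). The rule limits the range of levels, on which a correlation of levels depends. Fresh levels had one of 0.80 over all 3268 overlapping pairs of listed regions and of 0.16 over pairs of highly methylated regions. Among the 202 pairs of members in which both tissues differed by at least 20 points, 104 had the same direction, 51.5% (44.6 to 58.3). Whether the embryos descended from the males of the sperm libraries is not stated, and no library was shared by the comparisons. In 437 genes with exactly 1 member in each tissue, the direction was the same in 213.

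**Figure D5:**
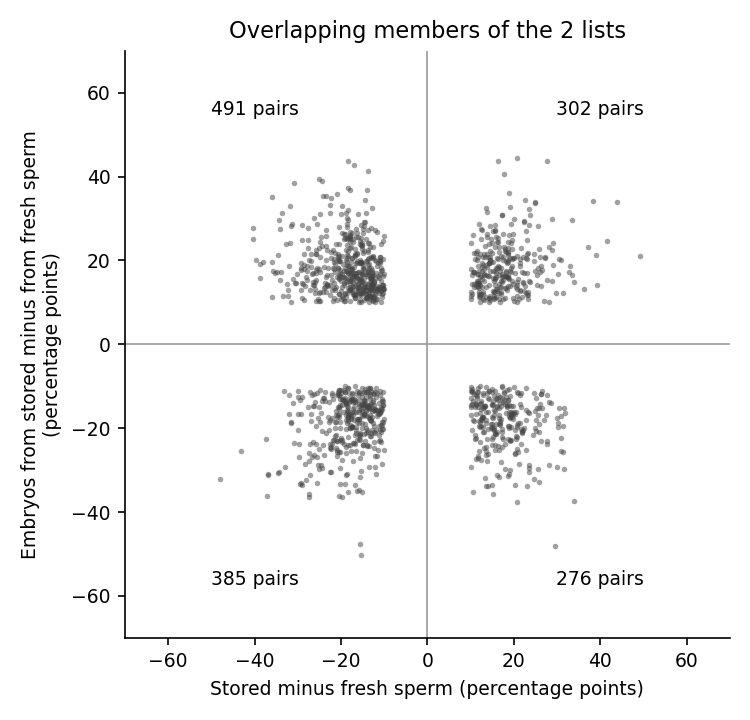
Stored minus fresh difference in sperm (horizontal axis, percentage points) and in embryos (vertical axis, percentage points) for the 1454 pairs of overlapping members, 1 point per pair, with the number of pairs in each corner. The points fill all corners, with the most, 491, where sperm was lower and embryos were higher in the stored group; the gap along both axes is the 10-point minimum of the lists.

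Pairs with the widest differences were found in each combination. Both tissues were higher in the stored group in commd10, a gene of endosomal protein sorting, where sperm had 62.7% in stored and 24.4% in fresh samples (A8:534408-534463) and embryos 63.5% from stored and 29.3% from fresh sperm. The same held in elmo2, a regulator of cell migration, with 53.3% (stored) against 25.1% (fresh) in sperm and 54.8% (stored) against 31.5% (fresh) in embryos, and in the cohesin gene rad21b, with 44.8% (stored) against 22.3% (fresh) in sperm and 76.2% (stored) against 41.8% (fresh) in embryos. Both were lower in ctnna1, the gene of alpha-catenin at cell junctions (B14:13053140-13053282 in sperm), with 59.3% in stored and 83.5% in fresh sperm and 55.5% (stored) against 79.5% (fresh) in embryos. The fucosidase gene fuca2 had 32.7% (stored) against 58.4% (fresh) in sperm and 29.8% (stored) against 53.5% (fresh) in embryos, and camk2d1, a calcium-dependent kinase gene, 46.2% (stored) against 68.4% (fresh) in sperm and 42.4% (stored) against 67.3% (fresh) in embryos.

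Wide differences of opposite direction were found at one place as well. In rb1, the retinoblastoma gene that restrains the cell cycle, a sperm member (A21:11734104-11734157) had 30.6% in stored and 58.2% in fresh sperm, and the overlapping embryo member had 44.2% in embryos from stored and 19.4% in embryos from fresh sperm. The acid-sensing channel gene asic1a had 41.7% (stored) against 63.0% (fresh) in sperm and 66.9% (stored) against 45.1% (fresh) in embryos over regions with the same start. The reverse was seen in the teneurin gene tenm2b, which acts in neuronal adhesion, where an embryo member lay within a sperm member: sperm had 46.3% in stored and 25.96% in fresh samples, and embryos 14.7% from stored and 48.3% from fresh sperm. In asphd1 sperm had 78.3% (stored) against 50.1% (fresh) and embryos 41.8% (stored) against 70.7% (fresh), and in the ubiquitin ligase gene hecw2b 85.1% (stored) against 54.9% (fresh) in sperm and 63.0% (stored) against 82.8% (fresh) in embryos.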

How the data were processed

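Whole-genome bisulphite libraries of sperm and mid-blastula embryos were processed by the authors, who aligned filtered reads to the RefSeq carp assembly with BSMAP, whose version the sources used here do not give, removed duplicates and took the methylated share of the reads at a cytosine as its level. The deposited values were 1 mean level per group and region, as a fraction from 0 to 1, printed here as percent, for CpG regions of at least 5 cytosines. The deposited number of cytosines was taken to count both strands, since 26 sperm and 30 embryo regions held as many cytosines as bases. The authors' own differences and p-values per region were deposited too and were not used.

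Members were chosen by the mean of the stored and fresh level. The members and the gene lists were chosen with earlier results of these data known. Positions came from the RefSeq gene table of the same build (55089 genes on 50 chromosomes), with flanks of 1 kb and shorter named genes preferred where genes overlap. The table's letters A and B were assigned to the deposited chromosomes in order, and chromosome ends differed by at most 130 kb. Regions were read as half-open intervals. Shares carry Wilson and medians order-statistic 95% intervals. Genes were named by rule: the 8 largest differences per tissue and direction among members of at least 7 cytosines, the 5 genes and 5 runs with most members, the 5 members with most cytosines, the 4 widest sperm and embryo pairs per combination of directions and the 2 largest per gene list; others are said to be chosen after their values were seen. Gene roles are background from zebrafish, mouse, human or, where said, yeast. Counting steps were tested on simulated regions (6 of 6 checks recovered) with Python 3.11.15, pandas 2.3.3 and numpy 2.4.6. Depth is unknown, so no precision could be given per region, and replicates could not be compared.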

Additional observations from a re-analysis of the deposited data

How the results depend on the processing

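No paired analysis was possible because the lists hold 1 mean level per group, and for the same reason no library could be left out in turn. Of 66 combinations of the 12 summary values with another setting, 45 stayed within the 95% interval of the value given above. Choosing members by the stored or the fresh level alone gave 31.3% and 57.9% of sperm members and 39.3% and 65.5% of embryo members higher in the stored group. With at least 7 cytosines the sperm share was 40.2%, the median density 10.8 in sperm and 11.0 in embryos, the share with another member within 1 kb 20.0% and 19.1%, and the share of sperm members overlapping an embryo member 16.04%. With differences of at least 20 points another member lay within 1 kb of 10.3% of sperm and 9.96% of embryo members, 7.71% of sperm members overlapped an embryo member and 53.4% of placed sperm members lay in gene bodies, and 51.49% of overlapping pairs had the same direction. A mean level of 30% to 70% gave 25.03% of sperm members with another within 1 kb, and a distance of 500 bp 21.2% in sperm and 21.1% in embryos. Flanks of 2 kb held 10.9% and 11.8%. Requiring an overlap over 50% of both regions left 5.16%. Settings chosen after seeing the data, 1 member per run and the last base counted in, moved nothing past its interval. Fewer members enter each stricter setting, and depth per region is unknown.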

Other observations

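The genes and window given here were chosen after their values were seen. Of the genes without a name, LOC109084161 on B22 (941455 bp) held the most sperm members, 17, and 13 embryo members, and LOC109103223 on the same chromosome (1793396 bp) held the most embryo members, 18. LOC109091650 on A11 held members more densely, with 11 sperm and 9 embryo members in 203195 bp, 5.41 and 4.43 per 100 kb. Long non-coding RNA genes held 3.26% of placed sperm and 3.42% of placed embryo members. The shares were 1.96% and 1.91% of placed highly methylated regions and 5.22% and 5.11% of placed lowly methylated ones. A further dense window of 100 kb on B23 from 26.6 Mb held 13 embryo members of 16 listed regions, 8 higher and 5 lower in embryos from stored sperm. In dgat1a, an enzyme gene of triglyceride synthesis of 32761 bp, 5 embryo members and 3 sperm members were found, and the embryo differences ran from -24.7 to 18.5 points.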
